A study of Mus musculus with 9 samples.

Results

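Endothelial cells line the blood vessels of the brain. They are sealed by tight junctions, such as those built from Cldn5, and they carry nutrients across the blood-brain barrier with dedicated transporters, such as the glucose transporter Slc2a1. The signaling pathway of Wnt and beta-catenin is known to maintain this barrier state, and activated endothelial cells, mostly of venules, display adhesion molecules such as Vcam1 to passing leukocytes. Cholesterol supply in most cells is set by SREBP2, a transcription factor that turns on the genes of cholesterol synthesis when sterols in the endoplasmic reticulum run low.

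The cells described here were chosen by their own transcripts from 9 single-cell RNA libraries of sorted CD11b+ brain cells. CD11b, the product of Itgam, marks myeloid cells, so the endothelial cells were a minority that passed the sort. Libraries came from female C57BL/6 mice, named C57BL/6J in the study. Ctrl mice received no treatment, and D0 mice received the CSF1R inhibitor PLX5622 in their diet (1200 mg/kg) for 14 days. D2 mice were given the same and then had a control diet for 2 days. CSF1R is the receptor on which microglia depend for survival. Ctrl mice were matched in age, each Ctrl library held 1 brain without cerebellum, and each D0 or D2 library pooled 2 brains. The study left out D2-3, so tests used 3 Ctrl, 3 D0 and 2 D2 libraries, and D2-3 entered no main test. Its values are given beside those of the others for most of the genes that the results turn on.

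Barcodes with 500 to 20000 unique molecular identifiers (UMIs, each marking 1 captured transcript) were kept if they had 200 genes or more and if mitochondrial genes held no more than 10% of the UMIs. It was called endothelial with a UMI in at least 4 of 7 genes (Cldn5, Flt1, Ly6c1, Itm2a, Slco1a4, Ptprb and Egfl7), in at most 1 of 4 microglia genes (P2ry12, Tmem119, Siglech and Gpr34) and in at most 1 of 4 mural genes (Acta2, Tagln, Myl9 and Rgs5). This rule selected 859 of 30463 kept cells, of which 805 were in the 8 libraries tested. Ctrl-1, Ctrl-2 and Ctrl-3 held 40, 35 and 59 endothelial cells, D0-1, D0-2 and D0-3 held 168, 95 and 124, D2-1 and D2-2 held 153 and 131, and D2-3 held 54. The summed endothelial UMIs ran from 184001 in Ctrl-1 to 671790 in D0-3, and the Ctrl sums were the shallowest of the 8 libraries. No endothelial barcode was shared in any of the 36 pairs of libraries.

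The label was checked against endothelial genes that the rule did not read. Summed over the 25 genes of the endothelial identity list (among them Pecam1, Cdh5, Tek and Kdr), the members had 38400 CPM (the UMIs of a gene or list scaled to the same total in every sum) against 871 CPM in other cells, meaning kept cells with at most 1 endothelial and at most 1 mural gene. Pecam1, an adhesion molecule of endothelial junctions, was at 707, 632 and 756 CPM in Ctrl, 796, 735 and 648 CPM in D0, 871 and 778 CPM in D2 and 588 CPM in D2-3. Of the 4 markers of lymphatic endothelium, Lyve1 was at 0 in every library, and Prox1 and Pdpn were at 0 in all but 1. The other, Flt4, which encodes VEGF receptor 3, was at 32.6 to 80.9 CPM in the 9 libraries, with group means of at most 0.0228 CPM in other cells. Of all members, 667 had UMIs in all 7 rule genes. The 40 members with 4 rule genes were poorer in identity genes, at 24632 CPM, and the 33 cells just outside, with 3 rule genes, were at 9091 CPM. Among those cells neutrophil markers came to 40112 CPM with 4 rule genes and to 116152 CPM with 3, against 1842 CPM over all members.

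Itgam itself was nearly absent from the endothelial cells. It was at 16.3, 4.78 and 11.6 CPM in Ctrl, 12.7, 7.10 and 1.49 CPM in D0, 22.1 and 6.81 CPM in D2, and 3.23 CPM in D2-3, whereas its mean in other cells was 519, 406 and 292 CPM in the 3 groups. How endothelial cells passed the sort was not tested. Csf1r, the target of the inhibitor, was at 65.2, 47.8 and 60.1 CPM in Ctrl, 72.8, 46.1 and 16.4 CPM in D0, 47.9 and 22.1 CPM in D2, and 35.5 CPM in D2-3, with ranges that overlapped. A Csf1r UMI was found in 8.87% to 23.7% of the endothelial cells of a library and in 78.7% to 98.1% of the other cells. Il34, a ligand of CSF1R, was at 0 in all 9 libraries.

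Transcripts of other cell types were present at low levels (see the plot of marker sums). The 15 microglia markers outside the rule summed to 1196, 1172 and 675 CPM in Ctrl, 1968, 997 and 661 CPM in D0, and 918 and 585 CPM in D2, against 48542 to 69234 CPM in the other cells of these libraries, and to 701 CPM in D2-3, against 20207 CPM. The 11 mural markers outside the rule, led by Vtn, stayed between 0 and 59.8 CPM. The 4 mural genes of the rule, which allows a UMI in 1 of them, summed to 3.23 to 118 CPM, against at most 10.6 CPM in other cells. Most of this was the pericyte gene Rgs5, at 104 CPM in D0-1 and 87.0 CPM in Ctrl-1, the highest libraries, and its part in the results was not tested. The neutrophil markers, led by S100a9, were uneven: 21.7, 19.1 and 4.62 CPM in Ctrl, 2815, 10063 and 40.2 CPM in D0, 92.1 and 231 CPM in D2 and 67.8 CPM in D2-3. In D0-2, 9 cells held 5546 of 5671 neutrophil UMIs, and in D0-1 a single cell held 1517 of 1546. Likewise, 2 cells of Ctrl-2 held 3846 of 3848 hemoglobin and Alas2 UMIs. No doublet caller was run. Each count of genes below was therefore repeated without the 13 cells with at least 10 UMIs of either kind.

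**Figure D1:**
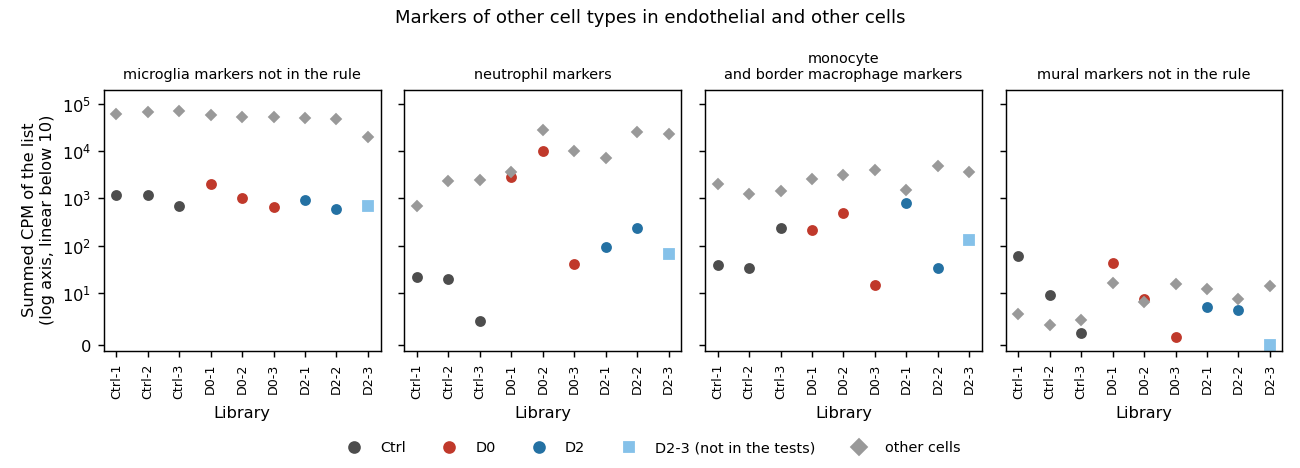
Summed CPM of 4 marker lists (log axis, linear below 10) in the endothelial cells (colored) and the other cells (gray) of each library. Neutrophil markers reach 10063 CPM in the endothelial cells of D0-2 and 2815 CPM in those of D0-1, and stay at 231 CPM or less in the endothelial cells of the other libraries.

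Endothelial cells made up a larger share of the kept cells after the inhibitor. They were 0.939%, 1.36% and 1.60% of the kept cells in Ctrl, 4.05%, 1.91% and 4.70% in D0, 3.89% and 5.42% in D2, and 2.99% in D2-3. Every D0 and D2 value was above every Ctrl value, and D0 and D2 overlapped. The mean was 1.30% ± 0.332 (SD, n = 3) in Ctrl, 3.55% ± 1.46 (n = 3) in D0 and 4.65% ± 1.08 (n = 2) in D2, or 2.74 and 3.59 times the Ctrl mean. The two-sided exact permutation test gave p = 0.1 for D0 and p = 0.2 for D2 against Ctrl, each the smallest that the number of libraries allows, and p = 0.6 for D2 against D0. Since 3 shares were compared and 0.1 was the smallest p, none could pass 0.05. In the libraries tested, the limit on microglia genes removed from 1 cell, in D2-2, to 19 cells, in Ctrl-2. With no such limit the D0 and D2 means were 2.34 and 2.92 times the Ctrl mean. Ctrl still lay below D0 and D2, but only narrowly below D0, with 2.095% in Ctrl-2 and 2.129% in D0-2. A share of sorted cells depends on the number of myeloid cells left in the brain as well as on the endothelial cells, and these cannot be told apart.

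**Figure D2:**
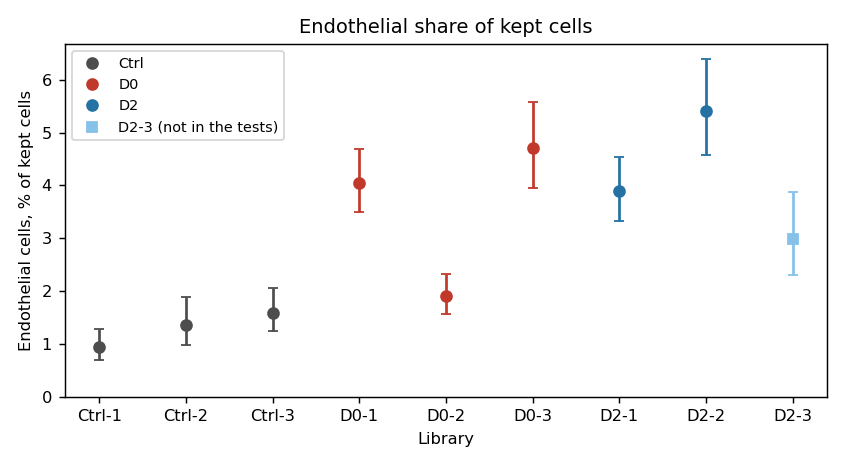
Endothelial cells as a percentage of kept cells in each library, with 95% Wilson intervals, which cover counting error only. The 3 Ctrl libraries lie between 0.939% and 1.60%, below all D0 and D2 libraries.

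Between conditions, few genes of endothelial cells passed the test. UMIs were summed over the endothelial cells of each library and tested with the quasi-likelihood test of edgeR (all p-values adjusted by Benjamini and Hochberg over 7822 genes). Between D0 and Ctrl, 1 gene rose (0.0128% of those tested) and 0 fell (0%). At an unadjusted p under 0.05, 190 genes were higher (2.43%) and 209 lower (2.67%). Between D2 and Ctrl, 2 genes rose (0.0256%) and 0 fell (0%), with 336 higher (4.3%) and 322 lower (4.12%) at an unadjusted p under 0.05. Between D2 and D0, 0 genes passed in either direction (0% and 0%), with 209 higher (2.67%) and 215 lower (2.75%) at an unadjusted p under 0.05, while DESeq2 called 1. D0 and D2 were compared with the same Ctrl libraries. Nothing in the labels says more of the libraries than the number of brains in each, so these p-values measure the spread between libraries.

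Without the 13 cells with neutrophil or erythroid UMIs, a setting chosen after seeing the data, the counts were 1 higher and 2 lower for D0 against Ctrl, 6 higher and 1 lower for D2 against Ctrl, and 4 higher and 0 lower for D2 against D0. Among the genes added were Angptl4, lower in D0, Lrg1, Fnbp1l, Adipor2 and Cebpd, higher in D2, and Fas, Cdkn1a, Pik3ip1 and Lrg1, higher in D2 than in D0. Of these, Fnbp1l and Adipor2 are named only from that result.

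The file headers name Cell Ranger 3.0.2 for Ctrl-1 and for all D0 and D2 libraries tested, and 3.1.0 for Ctrl-2 and Ctrl-3. A fit with that version as a term, which compares D0 and D2 with Ctrl-1 alone, is given below where it ends a call.

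Genes of cholesterol synthesis and uptake had higher levels at D0, and none of those named below passed the test. Of the 25 genes on this list, 19 had enough counts to be tested, and all 19 were higher in D0 than in Ctrl. The median log2 fold change was 0.77, against -0.01 over all genes tested, of which 48.7% were higher. At an unadjusted p under 0.05, 9 of the 19 were higher and 0 lower. Without a filter on low counts, 24 of the 25 could be fitted and all 24 were higher at D0 (median 0.83). In D2 16 of 19 were higher than in Ctrl, with a median of 0.77, and 9 were higher at an unadjusted p under 0.05. Summed over the list, levels were 625, 584 and 654 CPM in Ctrl, 1049, 1141 and 1212 CPM in D0, 999 and 1023 CPM in D2, and 730 CPM in D2-3. No group overlapped with another in these 8 libraries, and Ctrl-1 was with the other Ctrl libraries, while D2-3 lay between Ctrl and D2.

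The first steps of the pathway build the isoprenoid chain. Hmgcs1, the cytosolic HMG-CoA synthase at its start, was at 21.7, 38.3 and 46.2 CPM in Ctrl, 76.5, 74.5 and 87.8 CPM in D0, 70.0 and 69.8 CPM in D2, and 64.6 CPM in D2-3 (log2 1.06 ± 0.26, adjusted p = 0.29 at D0). Idi1, which isomerizes the isoprenoid unit, was at 32.6, 47.8 and 18.5 CPM in Ctrl, 69.2, 79.8 and 80.4 CPM in D0, and 84.7 and 78.3 CPM in D2, but at 22.6 CPM in D2-3 (log2 1.36 ± 0.30, adjusted p = 0.25). Fdps, which makes farnesyl diphosphate, was at 48.9, 14.4 and 43.9 CPM in Ctrl, 69.2, 97.6 and 124 CPM in D0, 86.6 and 105 CPM in D2, and 54.9 CPM in D2-3 (log2 1.39 ± 0.32, adjusted p = 0.26). In each of these genes the Ctrl libraries lay below all 5 D0 and D2 libraries tested.

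Later steps close and trim the sterol rings. Sqle, squalene epoxidase, was at 5.43, 9.57 and 9.25 CPM in Ctrl, 43.7, 26.6 and 22.3 CPM in D0, 36.8 and 30.6 CPM in D2, and 9.69 CPM in D2-3 (log2 1.82 ± 0.50, adjusted p = 0.45). Cyp51, lanosterol demethylase, was at 38.0, 4.78 and 16.2 CPM in Ctrl, 61.9, 58.6 and 62.5 CPM in D0, 55.3 and 71.5 CPM in D2, and 22.6 CPM in D2-3 (log2 1.73 ± 0.38, adjusted p = 0.25). Msmo1, a sterol methyl oxidase, was at 10.9, 43.1 and 32.4 CPM in Ctrl, 61.9, 88.7 and 93.8 CPM in D0, 73.7 and 97.0 CPM in D2, and 48.4 CPM in D2-3 (log2 1.44 ± 0.32, adjusted p = 0.25). Ctrl and D0 did not overlap in any of these, and the values of D2-3 for Sqle and Cyp51 lay near or within the Ctrl range. Among the genes that answer to sterols without making them, Insig1, which holds SREBP in the endoplasmic reticulum, had a log2 fold change of 1.19 ± 0.30, and Srebf2, which encodes SREBP2, of 0.31 ± 0.22. Stard4, a sterol carrier, was at 81.3 to 168 CPM in Ctrl and 106 to 113 CPM in D0 (log2 0.04 ± 0.24).

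**Figure D3:**
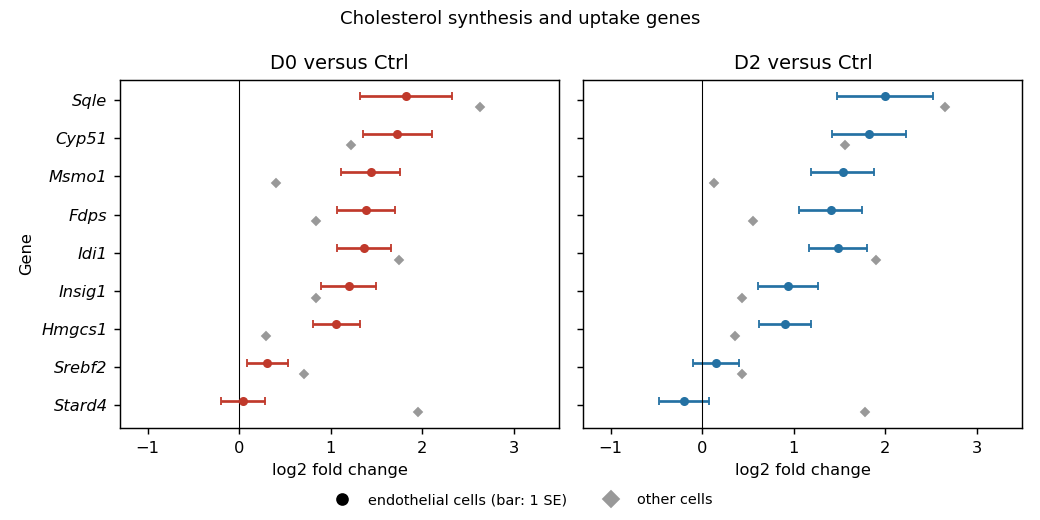
Log2 fold change of 9 genes of cholesterol synthesis and uptake described in the text against Ctrl in endothelial cells (colored, with bars of 1 SE) and in other cells (gray diamonds), for D0 and D2. All endothelial values lie above 0 at D0, from 0.04 for Stard4 to 1.82 for Sqle.

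Genes of the list were higher in other cells too, with 19 of 19 above Ctrl at D0 and a median log2 fold change of 0.70. Of the whole list, 0 genes rose more in endothelial than in other cells in the test of that difference. Stard4 changed less in endothelial cells at D0 (log2 difference -1.85, adjusted p = 0.008). Mylip, an E3 ubiquitin ligase known as a target of LXR, belongs to the cholesterol efflux list and was at 43.5, 47.8 and 27.7 CPM in Ctrl, 16.4, 1.77 and 16.4 CPM in D0, 16.6 and 8.51 CPM in D2, and 22.6 CPM in D2-3. Ctrl lay above both groups (log2 -1.66 ± 0.54, adjusted p = 0.73). Of the 5 efflux genes tested, 4 were lower at D0, with a median of -0.72. The sum of that list, most of it Apoe, which encodes a lipid carrier, overlapped between Ctrl (1152, 1727 and 1593 CPM) and D0 (1926, 1492 and 1709 CPM), and no other gene of it had more than 52 UMIs in a library.

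The promoters of Hmgcs1, Idi1, Cyp51 and Msmo1 are shown because these genes were among those with the clearest separation of Ctrl and D0, and because the promoters of sterol genes are known to bind NF-Y, at CCAAT, beside SREBP. Each run ends at or before the start site, from RefSeq (GRCm38.p6), and capitals mark CCAAT or its reverse complement ATTGG and, in Hmgcs1, the sterol element TCACCCCAC.
Hmgcs1 (chr13:119690101-119690334, plus): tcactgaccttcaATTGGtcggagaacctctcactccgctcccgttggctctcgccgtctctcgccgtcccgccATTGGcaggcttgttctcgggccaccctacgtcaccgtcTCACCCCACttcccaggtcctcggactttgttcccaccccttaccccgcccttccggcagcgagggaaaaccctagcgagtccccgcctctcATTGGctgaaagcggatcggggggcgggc
Idi1 (chr13:8885541-8885605, plus): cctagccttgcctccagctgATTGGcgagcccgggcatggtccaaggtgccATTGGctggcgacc
Cyp51 (chr5:4104698-4104746, minus): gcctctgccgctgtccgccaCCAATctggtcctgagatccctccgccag
Msmo1 (chr8:64733605-64733758, minus): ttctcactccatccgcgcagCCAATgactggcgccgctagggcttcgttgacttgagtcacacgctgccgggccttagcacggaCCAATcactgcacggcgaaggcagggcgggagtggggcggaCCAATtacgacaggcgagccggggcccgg
The table held 20 promoters of 17 of the 25 list genes, each of 300 bases (250 before and 50 after the start). CCAAT was found on either strand in 16 of these 20, against 37.4% of all 32851 promoters of that length. The letters TCACNCCAC, searched on both strands, were found in 1, that of Hmgcs1, against 1.24%, and TCACGTGA in 0, against 0.974%. A match describes the letters only. Sqle and Fdps are among the 8 genes without an entry.

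Among genes lower at D0, Angptl4 (chr17:33773750-33781830, minus), an inhibitor of lipoprotein lipase, was at 32.6, 67.0 and 64.7 CPM in Ctrl, 10.9, 14.2 and 11.9 CPM in D0, 42.4 and 22.1 CPM in D2, and 19.4 CPM in D2-3. D0 lay below all other libraries, and D2 overlapped with Ctrl. The log2 fold change was -2.19 ± 0.38 at D0 (adjusted p = 0.077) and -0.80 ± 0.36 at D2 (adjusted p = 0.58). Without the cells with neutrophil or erythroid UMIs, Angptl4 fell at D0 (adjusted p = 0.042), with a range of 2.1e-05 to 0.71 over 22 alternatives. AI314180, next by p, was at 67.0 to 136 CPM in Ctrl and 32.8 to 47.6 CPM in D0 (log2 -1.23 ± 0.27, adjusted p = 0.25).

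Cdkn1a and Pik3ip1 rose at D2. Cdkn1a (chr17:29090976-29100727, plus) encodes p21, which halts the cell cycle, and was at 310, 172 and 277 CPM in Ctrl, 519, 396 and 280 CPM in D0, 895 and 1063 CPM in D2, and 268 CPM in D2-3. D2-1 and D2-2 stood above all other libraries, whereas D2-3 was within the Ctrl range. The log2 fold change was 1.98 ± 0.26 against Ctrl (adjusted p = 0.0069), and the direction held in Ctrl-1 alone, which shares its Cell Ranger version with D2-1 and D2-2. Pik3ip1 (chr11:3330401-3342971, plus), an inhibitor of PI3 kinase, was at 97.8, 105 and 106 CPM in Ctrl, 157, 115 and 119 CPM in D0, 249 and 281 CPM in D2, and 100 CPM in D2-3 (log2 1.39 ± 0.21, adjusted p = 0.023). Here too D2-3 lay at the level of Ctrl.

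In the fit that adjusts for software version, the log2 fold change against Ctrl was 1.68 (adjusted p = 0.18) for Cdkn1a and 1.45 (adjusted p = 0.22) for Pik3ip1. Both calls were also lost with D2-3 included, with a log2 fold change of 1.59 (adjusted p = 0.27) for Cdkn1a and of 1.09 (adjusted p = 0.41) for Pik3ip1. They were also lost without Ctrl-3 (0.11 and 0.19), D2-1 (0.071 and 0.10) or D2-2 (0.22 and 0.41), and with no limit on microglia genes (0.0502 and 0.0503), and that of Pik3ip1 without Ctrl-2 (0.092) and with cells thinned to 1000 UMIs (0.48). Over 22 alternatives the adjusted p ran from 3.1e-18 to 0.27 for Cdkn1a and from 2.0e-06 to 0.48 for Pik3ip1. In other cells Cdkn1a was at 32.7, 139 and 137 CPM in Ctrl, D0 and D2, and the test of the difference in its change at D2 between the 2 kinds of cells gave a log2 difference of -0.15 (adjusted p = 1), while at D0 its change was smaller in endothelial cells (log2 difference -1.51, adjusted p = 0.049).

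Fas, a death receptor, had the lowest p between D2 and D0 (chr19:34290666-34327772, plus). It was at 97.8, 120 and 111 CPM in Ctrl, 96.5, 85.2 and 80.4 CPM in D0, 188 and 204 CPM in D2, and 93.6 CPM in D2-3 (log2 1.20 ± 0.19, adjusted p = 0.052). D2-1 and D2-2 were above all others, and D2-3 was again among Ctrl and D0. Cttnbp2nl (184 and 231 CPM in D2-1 and D2-2, 80.4 to 122 CPM in D0 and 103 CPM in D2-3) and Fam107a (60.8 and 74.9 CPM, 19.4 to 31.9 CPM and 29.1 CPM) had the same order, with adjusted p-values of 0.23 and 0.26. Prr5l, which encodes a binding partner of the mTORC2 kinase complex, had the opposite one, with 36.8 and 40.8 CPM in D2, 74.6, 83.4 and 106 CPM in D0 and 54.9 CPM in D2-3 (log2 -1.14, adjusted p = 0.27). Lrrn3 (55.3 and 52.7 CPM in D2, 90.5 to 110 CPM in D0) was also lower in D2 and did not pass.

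For Lrg1 and Tmem252, D2-3 went with D2-1 and D2-2. Lrg1 (chr17:56119678-56122001, minus), a secreted protein that modulates TGF-beta signaling in vessels, was at 0, 0 and 2.31 CPM in Ctrl, 10.9, 14.2 and 2.98 CPM in D0, 36.8 and 51.0 CPM in D2, and 87.2 CPM in D2-3. The 3 D2 libraries were the highest and the groups did not overlap. Ctrl held 1 UMI and D2 50, a ratio of 36.5 (95% exact interval 6.26 to 1471, which pools libraries and covers counting error only), and the fitted log2 fold change of 4.95 ± 0.85 had an adjusted p of 0.063 (0.020 without the cells with neutrophil or erythroid UMIs, and 3.1e-07 to 0.68 over 18 alternatives). Tmem252 was at 120, 76.6 and 109 CPM in Ctrl, 180, 202 and 140 CPM in D0, 254 and 218 CPM in D2, and 262 CPM in D2-3 (log2 1.24 ± 0.24, adjusted p = 0.080). Over 22 alternatives the log2 fold change of Tmem252 ran from 0.23, with cells thinned to 1000 UMIs (adjusted p = 0.94), to 1.58. Cebpd, a transcription factor of the inflammatory response, was at 81.5, 52.6 and 69.4 CPM in Ctrl, 160, 122 and 134 CPM in D0, 225 and 136 CPM in D2, and 110 CPM in D2-3 (log2 1.44 ± 0.27, adjusted p = 0.080, with a log2 fold change of 0.85 to 1.77 over 22 alternatives). Ctrl was the lowest group for both, and D2-3 lay below D0 and D2 for Cebpd.

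**Figure D4:**
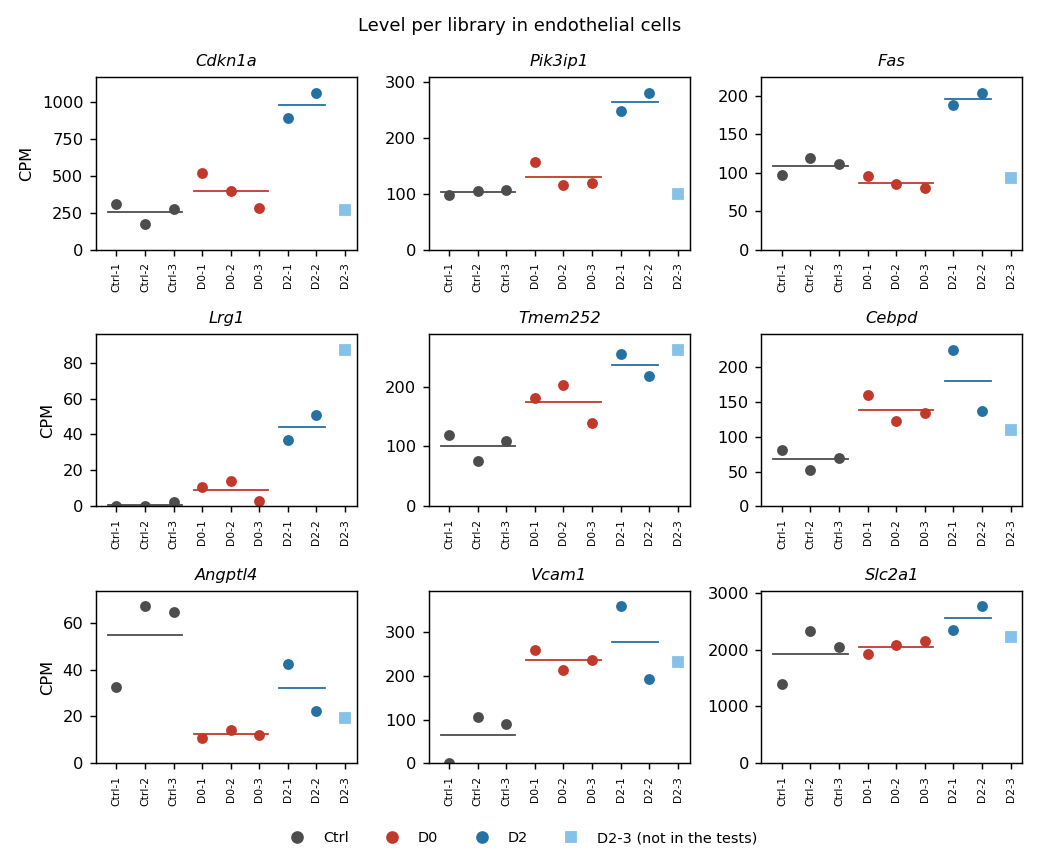
CPM of 9 genes in the endothelial cells of each library, with lines at the group means of the libraries tested and D2-3 as a square. Tmem252 and Cebpd are higher in all D0 and D2 libraries than in Ctrl, while D2-3 stands at Ctrl levels for Cdkn1a, Pik3ip1 and Fas.

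Genes lower at D2 were not called. Hist3h2a, a histone gene, was at 74.0 to 87.0 CPM in Ctrl, 33.2 and 35.7 CPM in D2, and 54.9 CPM in D2-3 (log2 -1.16 ± 0.26, adjusted p = 0.15, and log2 -2.04 with cells thinned to 1000 UMIs). Hhex, a transcription factor of early vessels, was at 97.8 to 129 CPM in Ctrl, 64.5 and 25.5 CPM in D2 and 126 CPM in D2-3 (log2 -1.35 ± 0.31, adjusted p = 0.15). The log2 fold change of Hhex depended on the D2 libraries, with -0.81 without D2-2, -2.11 without D2-1 and -0.82 with D2-3 included. Lrrn3 and Tspan9 had log2 fold changes of -0.94 and -1.24, both with an adjusted p of 0.26.

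Genes of activation and leukocyte adhesion had higher levels at D0, with no single gene called. Of 20 genes on the list, 16 were tested and all 16 were higher in D0 than in Ctrl, with a median log2 fold change of 1.11, and 8 were higher at an unadjusted p under 0.05. Some of the 16 had enough counts to be tested only through D0 or D2, such as Ccl2 and Lrg1, each with 1 UMI in Ctrl. The filter on low counts largely set their direction, so 16 of 16 and the median are no test of a rise. The D0 median stayed positive but was 0.37 with cells thinned to 1000 UMIs, 0.47 without an upper UMI limit and 0.52 with only the groups compared. In D2 13 of 16 were higher, with a median of 0.67. That median was -0.049 without D2-1, 1.34 without D2-2 and -0.15 when thinned, so its direction at D2 depended on 1 library. Vcam1 (chr3:116109949-116129688, minus), which binds leukocyte integrins, was at 0, 105 and 90.2 CPM in Ctrl, 259, 215 and 237 CPM in D0, 359 and 194 CPM in D2, and 232 CPM in D2-3 (log2 1.73 ± 0.42, adjusted p = 0.28 at D0). All D0 and D2 libraries were above Ctrl. Il1r1, the interleukin-1 receptor, was at 0, 19.1 and 23.1 CPM in Ctrl, 56.4, 40.8 and 55.1 CPM in D0, 75.5 and 63.0 CPM in D2, and 32.3 CPM in D2-3 (log2 1.59 ± 0.42, adjusted p = 0.42 at D0 and 0.12 at D2). Nfkbia, an inhibitor of NF-kappaB, was at 984, 507 and 647 CPM in Ctrl and 1165, 932 and 1014 CPM in D0, where the groups overlapped, and at 946 CPM in D2-3 (log2 0.55 ± 0.21). Icam2, by contrast, was at 331 to 431 CPM in Ctrl and 304 to 478 CPM in D0 (log2 0.05 ± 0.19).

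The chemokine genes Ccl2 and Ccl4 had low levels in Ctrl. Ccl2, which attracts monocytes, was at 0, 0 and 2.31 CPM in Ctrl, 63.7, 26.6 and 22.3 CPM in D0, 18.4 and 3.40 CPM in D2, and 42.0 CPM in D2-3. D0 was the highest group, with 65 UMIs against 1 in Ctrl, a ratio of 30.1 (95% exact interval 5.21 to 1206, with the same limit), and an adjusted p of 0.25. Ccl4 was at 28.7 to 64.7 CPM in Ctrl and 362, 234 and 98.2 CPM in D0 (adjusted p = 0.22). Other cells held 160, 316 and 306 CPM of Ccl2 and 3107, 6768 and 4607 CPM of Ccl4 in Ctrl, D0 and D2, and the median log2 fold change of the activation list was 0.99 in them. The part of transcripts from other cells in these levels was not tested. Lcn2, which is also a neutrophil transcript, was at 0 to 14.4 CPM in Ctrl, 115, 483 and 11.9 CPM in D0, 60.8 and 37.4 CPM in D2, and 129 CPM in D2-3. It was highest in D0-2, and D2-3 was above D0-1. The part of neutrophil transcripts in these levels was not tested.

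Immediate-early genes, which tissue digestion can also induce, were higher in D0 for 16 of 16 (median log2 0.43, 2 of them at an unadjusted p under 0.05). With 1 library left out the median ran from 0.12, without D0-2, to 0.64, without D0-3, and it was 0.24 without Ctrl-2. Ier3 had the lowest p, with 255, 172 and 240 CPM in Ctrl, 324, 543 and 505 CPM in D0, 265 and 236 CPM in D2, and 859 CPM in D2-3 (log2 1.03 ± 0.21, adjusted p = 0.22, and log2 0.50 with cells thinned to 1000 UMIs). Their summed level was 3320 to 6190 CPM in Ctrl and 5442 to 9591 CPM in D0, which overlapped. Their part in the level of activation genes was not tested.

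No gene of the barrier program passed the test between groups. Of 20 barrier transporters, all tested, 9 were higher and 11 lower at D0 (median log2 -0.02), with 0 higher and 1 lower at an unadjusted p under 0.05. At D2 7 were higher and 13 lower (median -0.14, and -0.03 with D2-3 included), with 2 higher and 5 lower at an unadjusted p under 0.05. The lowest p at D2 was that of Slc38a5, an amino acid transporter also used here as a venous marker, at 207, 258 and 273 CPM in Ctrl, 136 and 143 CPM in D2, and 210 CPM in D2-3 (log2 -0.80 ± 0.21, adjusted p = 0.30). Slc2a1 (chr4:119108711-119137983, plus) was at 1386, 2330 and 2037 CPM in Ctrl, 1915, 2087 and 2148 CPM in D0, 2338 and 2758 CPM in D2, and 2212 CPM in D2-3 (log2 0.09 ± 0.17 at D0 and 0.44 ± 0.19 at D2, adjusted p = 0.99 and 0.55). Its D0 values lay within the Ctrl range. Slco1c1, a transporter of thyroid hormone, was at 1262 to 1483 CPM in Ctrl and 1036 to 1325 CPM in D0 (log2 -0.23 ± 0.15). Abcg2, an efflux pump, had a log2 fold change of 0.08 ± 0.16, and Slc6a6, the taurine transporter, of 0.13 ± 0.17. Summed over the list, levels were 11667 to 12310 CPM in Ctrl, 11054 to 12682 CPM in D0, and 11141 and 11750 CPM in D2.

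Junction genes had 7 of 13 tested genes higher and 6 lower at D0 (median log2 0.00) and sums of 4606 to 4848 CPM in Ctrl and 4559 to 4860 CPM in D0. Esam, Ctnnb1, Tjp1 and Cdh5, the members with the most UMIs, had log2 fold changes of 0.04, -0.17, 0.00 and -0.03. Of 24 tested genes of endothelial identity, 8 were higher and 16 lower at D0 (median -0.03). The medians at D0 were -0.08 for the 16 genes of Wnt and beta-catenin signaling, -0.11 for caveolae, -0.13 for basement membrane, -0.06 for Notch, -0.14 for VEGF and sprouting, 0.06 for TGF-beta and BMP, -0.14 for shear-responsive genes, -0.16 for the xenobiotic response and -0.05 for glycolysis. At D2 the medians of Notch (-0.31, 2 of 9 higher), glycolysis (-0.24, 2 of 11 higher) and Wnt and beta-catenin signaling (-0.22, 4 of 16 higher) were further below 0, with 3, 2 and 2 genes lower and 0, 0 and 1 higher at an unadjusted p under 0.05. No gene of these lists passed the test. Heat shock genes were higher for 9 of 10 (median 0.16), and mitochondrial genes were lower for 10 of 13 (median -0.24, and 0.24 in other cells). These p-values do not show that the levels were equal.

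Ligands that act on myeloid cells were tested for 11 of 12, with a median log2 fold change of 0.02 at D0. Csf1, the other ligand of CSF1R, was at 27.2, 38.3 and 39.3 CPM in Ctrl, 63.7, 69.2 and 53.6 CPM in D0, 47.9 and 22.1 CPM in D2, and 80.7 CPM in D2-3 (log2 0.78 ± 0.31, adjusted p = 0.92). D0 was above Ctrl and D2 spanned it. Cxcl12, the member with the most UMIs and a ligand of CXCR4, was at 1618 to 2397 CPM in Ctrl and 2190 to 2532 CPM in D0 (log2 0.26 ± 0.16).

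Interferon response and MHC class I genes mostly differed in direction at D0 between endothelial and other cells. Other cells are a mixture of cell types. Their neutrophil markers summed to 672 to 2454 CPM in Ctrl and 3629 to 27316 CPM in D0. The part of this mixture in the differences was not tested. In endothelial cells 3 of 24 were higher and 21 lower at D0 (median log2 -0.22), whereas 23 of 24 were higher in other cells (median 0.87). When endothelial and other sums of each library were fitted together, with the library as a block (13666 genes), 13 of these 24 changed less in endothelial cells at D0 and 11 at D2, and 0 changed more. The pattern was not particular to this list. At D0 the change was smaller in endothelial cells for 76 of 77 ribosomal protein, 13 of 13 glycolysis and 13 of 13 mitochondrial genes, with 12, 3 and 0 called. That fit called 42 genes (0.307%) with a higher and 215 (1.57%) with a lower change in endothelial cells at D0, and 63 (0.461%) and 141 (1.03%) at D2. These 257 and 204 calls became 14 and 154 with D2-3 included and 55 and 78 without Ctrl-3, and those at D2 became 80 without D2-2. Without the cells with neutrophil or erythroid UMIs they were 274 and 216. Ifitm3, an antiviral membrane protein, was at 1163, 2191 and 1882 CPM in Ctrl and 1384, 1840 and 1664 CPM in D0 in endothelial cells, against means of 158 and 380 CPM in other cells (log2 difference -1.53, adjusted p = 0.003). H2-D1, an MHC class I chain, was at 1234 to 2368 CPM in Ctrl and 1418 to 1961 CPM in D0, against means of 751 and 1352 CPM (log2 difference -1.17, adjusted p = 0.003). In neither gene did Ctrl and D0 separate in endothelial cells, whereas the other cells had higher means in D0.

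Ribosomal protein genes followed the same order, with 66 of 76 higher at D0 by a median log2 of 0.19 in endothelial cells and 75 of 76 by 0.80 in other cells. Of the 15 cell cycle genes 5 were tested in endothelial cells, with a median of -0.15, while in other cells these 5 had a median of 1.91. In the fit of both kinds of cells, which kept all 15, the change at D0 was larger in endothelial cells for 8 and smaller for 7 (median log2 difference 0.30), and 1 of them was called, with a smaller change. Stmn1, a tubulin-binding protein of dividing cells, was at 277 to 375 CPM in Ctrl and 287 to 314 CPM in D0 in endothelial cells, and its mean in other cells was 36.8 and 349 CPM. A Mki67 UMI was found in at most 3.27% of the endothelial cells of a library, against 26.3% at most in other cells.

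**Figure D5:**
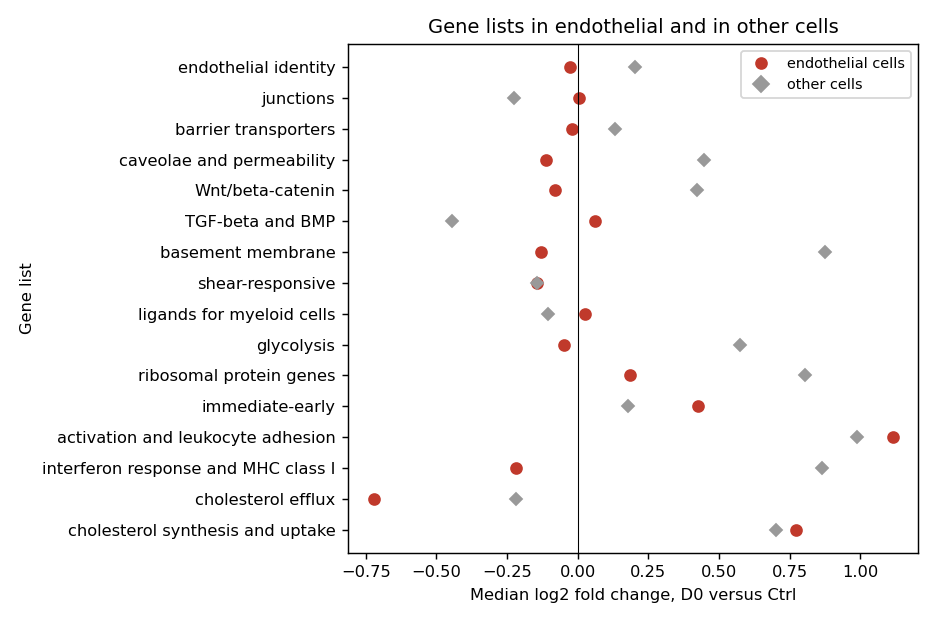
Median log2 fold change of 16 gene lists at D0 against Ctrl, in endothelial cells (red) and in other cells (gray). Cholesterol synthesis (0.77 and 0.70) and activation (1.11 and 0.99) lie on the same side in both, whereas interferon and MHC class I genes lie at -0.22 in endothelial cells and at 0.87 in other cells.

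The genes with a larger change in endothelial cells included Cebpd, for which endothelial means went from 67.8 to 139 CPM at D0 and to 180 CPM at D2, while those of other cells were 163, 95.5 and 92.2 CPM (log2 difference 1.65 and 2.17, adjusted p = 0.00054 and 5.1e-05). The D0 call was lost with D2-3 included (adjusted p = 0.071). Nav2, a protein of cell migration, was at 33.4, 57.6 and 65.4 CPM in endothelial cells and at 315, 172 and 169 CPM in other cells, while its level in D2-3 was 32.3 CPM. Its call at D0 was lost with D2-3 included (adjusted p = 0.25) and without Ctrl-3 (0.13), and that at D2 without Ctrl-3 (0.051). Nrp2, a co-receptor for VEGF and semaphorins, was at 48.9, 38.3 and 25.4 CPM in Ctrl, 74.6, 74.5 and 93.8 CPM in D0, 109 and 73.2 CPM in D2, and 80.7 CPM in D2-3, above Ctrl in every case (log2 difference 1.27 at D0, adjusted p = 0.041). This call was lost in 6 of 11 alternatives, with D2-3 included (adjusted p = 0.26) and without Ctrl-1 (0.060), Ctrl-2 (0.053), Ctrl-3 (0.51), D0-2 (0.10) or D0-3 (0.080). At D2, Fzd4, a Wnt and norrin receptor of barrier vessels, was at 81.5, 43.1 and 111 CPM in Ctrl and 164 and 165 CPM in D2 but at 80.7 CPM in D2-3 (log2 difference 1.86, adjusted p = 0.0024). Akap12, a kinase scaffold, was at means of 343, 404 and 633 CPM in endothelial cells and of at most 2.52 CPM in other cells. D2-3 was at 407 CPM, and with it included the log2 difference at D2 went from 2.24 to 1.42 and the call was lost (adjusted p = 0.20).

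Within the endothelial cells, arterial and venous ranges were set by markers. A cell was placed in the arterial range with UMIs in at least 2 of 12 arterial markers (such as Gkn3, Mgp and Bmx) and in more arterial than venous markers, and in the venous range likewise with 10 venous markers (such as Nr2f2, Vwf and Slc38a5). Of 805 cells, 165 (20.5%) were arterial, 272 (33.8%) venous, 14 (1.74%) tied, and the rest had too few markers. These are ranges of a score, not types, and they read a gene only where depth allows. The arterial share was 10.0%, 40.0% and 33.9% in Ctrl, 11.9%, 23.2% and 16.9% in D0, 19.6% and 26.0% in D2, and 22.2% in D2-3. Venous shares were 35.0%, 25.7% and 37.3% in Ctrl, 26.8%, 43.2% and 43.5% in D0, 32.0% and 29.0% in D2, and 48.1% in D2-3. With cells thinned to 1000 UMIs the venous shares were 16.7%, 7.14% and 15.1% in Ctrl, 12.8%, 16.9% and 18.1% in D0, 19.9% and 11.7% in D2, and 20.8% in D2-3, and the arterial shares 8.33%, 28.6% and 24.5%, 7.43%, 15.7% and 8.62%, 11.8% and 14.2%, and 12.5% in the same order. At D0 8 of 9 tested venous markers were higher than in Ctrl (median log2 0.94), 9 of 11 arterial markers were lower (-0.23), and 5 of 8 capillary markers were higher (0.02). The venous marker Lcn2, with at most 3 UMIs in a Ctrl library, had enough counts to be tested only through D0 or D2. The shares of all groups overlapped, and the exact permutation p was 0.4 to 0.8 in the 6 comparisons. The venous markers Vcam1, Icam1, Il1r1, Lcn2 and Ackr1 are also on the activation list, and without them the venous shares were 35.0%, 25.7% and 33.9% in Ctrl, and 23.8%, 35.8% and 36.3% in D0.

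Genes outside the markers that set them differed between these ranges as pooled levels over 8 libraries, given as a description. Slc2a1 was at 2788, 2665 and 2931 CPM in Ctrl, D0 and D2 in the arterial range, 1747, 1977 and 2374 CPM in the venous range, and 1310, 1718 and 2437 CPM in the cells of neither, so that the arterial level was the highest in each group and the order of the others differed at D2. Slc16a1, a carrier of lactate and ketone bodies, and Car4, a carbonic anhydrase, are both on the capillary list. Slc16a1 was at 149, 684 and 509 CPM in the arterial range, the venous range and neither, and Car4 at 51.4, 1331 and 959 CPM. This order held in each group. Of the same list, Tfrc was at 93.7, 369 and 309 CPM. Cxcl12 (1849, 1730 and 3726 CPM) and Mfsd2a (198, 229 and 343 CPM), also on it, were instead highest in the cells of neither. The venous range thus cannot be read as venous cells alone. Lrg1 was at 0 in the arterial range of each group, and in the venous range at 2.82 CPM in Ctrl, 14.0 CPM in D0 and 118 CPM in D2, which held 50 of its 63 venous UMIs. The sum of the cholesterol list was 608, 572 and 756 CPM in Ctrl for arterial, venous and other members, and 1193, 1115 and 1138 CPM in D0, so the higher level was present in each range.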

How the data were processed

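Live CD11b+ cells of the whole brain without cerebellum were sorted after myelin removal, and 3′ libraries were made with 10x Genomics v3 reagents. The authors aligned reads to mm10 with Cell Ranger and deposited raw UMI counts per gene and barcode, not normalized. The submitters' processing notes name version 3.1.0, whereas the file headers name 3.0.2 for 6 libraries and 3.1.0 for 3. The libraries held 20257894 to 61230741 UMIs. Counts tagged with UMIs at the 3′ end do not allow levels of different genes to be ranked.

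Endothelial UMIs were summed per library, since cells are not replicates, and given as CPM of the summed UMIs. Differences between sums were tested in 1 model of 3 groups by the quasi-likelihood test of edgeR 4.0.16 (in R 4.3.3, with TMM factors, filterByExpr and an adjusted p under 0.05), in place of the test over cells of the study, and with an interaction of cell class and group, with the library as a block. This step was also run on simulated data, and no result of that run is given here. Exact permutation tests over libraries (two-sided) compared the shares. The members, lists and most alternatives were chosen with earlier results of these data known. Named were, per comparison and direction, up to 10 called genes by fold with at least 20 CPM and no overlap of groups, filled to 5 by the lowest p, and 4 genes per list by level. Genes of the cholesterol, activation, efflux and ligand lists beyond those 4 (such as Hmgcs1, Sqle and Il1r1), Pecam1 and the values by range were picked after their values were seen. Some genes that meet this rule, called ones among them, are not reported here. Results were recomputed with DESeq2 1.42.0, with upper-quartile factors, with all genes unfiltered, with only the groups compared, blocked by replicate number, with 1 library omitted at a time, with D2-3 added, with Cell Ranger version as a covariate, with other UMI limits and endothelial rules, over genes higher in endothelial cells alone, with cells thinned to 1000 UMIs, and, chosen after seeing the data, without cells with neutrophil or erythroid UMIs. No doublet caller was run, and 0 columns of the files were set aside as unmapped. Promoters were from RefSeq and gene positions from GENCODE vM21, both GRCm38.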

Additional observations from a re-analysis of the deposited data

Results flagged for a closer look

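The change at D0 against Ctrl differed between endothelial and other cells, by the edgeR test of that difference, for 257 genes, and the change at D2 against Ctrl for 204 genes. The counts were 14 and 154 with D2-3 included and 55 and 78 without Ctrl-3, so most genes listed below for D0 and some of those for D2 are not called in these settings. Each value below is the log2 change in endothelial cells minus that in other cells. Other cells are a mixture of cell types, and the part of that mixture in these values was not tested. Every D0 and D2 library tested also held a larger share of endothelial cells than any Ctrl library, and its part in low levels of endothelial transcripts in other cells was not tested. In other cells, 6 of the 7 endothelial genes of the rule could be tested, with median log2 fold changes of 1.09 at D0 and 0.97 at D2. Of the 7, 2 at D0 and 3 at D2 were called with a smaller change in endothelial cells. Where other cells hold only a few CPM, such a difference says little of a change in endothelial cells.

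At D0 the 10 larger changes by this rule were Aim2 (2.41), Cebpd (1.65), Nav2 (1.63), Fam110a (1.57), Frmd4a (1.53), Camk2n1 (1.32), Ctnnd1 (1.31), Nrp2 (1.27), Tle4 (1.21) and Csnk1e (1.20). In those described here the means moved in opposite directions in the 2 kinds of cells. From Ctrl to D0 they went from 6.76 to 25.5 CPM in endothelial and from 74.5 to 51.8 CPM in other cells for Aim2, a sensor of cytosolic DNA, from 67.8 to 139 CPM and from 163 to 95.5 CPM for Cebpd, and from 33.4 to 57.6 CPM and from 315 to 172 CPM for Nav2. Camk2n1, an inhibitor of CaM kinase II, went from 111 to 145 CPM and from 174 to 82.6 CPM. Ctnnd1, which encodes p120 catenin of endothelial junctions, went from 77.3 to 109 CPM and from 42.5 to 22.0 CPM, and Tle4, a transcriptional corepressor, from 31.3 to 61.1 CPM and from 75.2 to 52.6 CPM.

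The 10 smaller changes at D0 were Angptl4 (-3.87), Hells (-3.12), Csrp1 (-2.98), Ska2 (-2.97), Slc25a24 (-2.55), Smtn (-2.41), Mcf2l (-2.41), Ifit2 (-2.01), Sigirr (-1.81) and Asnsd1 (-1.81). Angptl4 was lower in endothelial cells of D0, whereas its mean in other cells was at most 0.699 CPM. For Smtn, Mcf2l and Sigirr, too, the means of other cells stayed at or under 1.99 CPM. Csrp1, a protein of the actin cytoskeleton, had means of 128 and 93.0 CPM in endothelial cells and of 2.37 and 12.6 CPM in other cells.

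At D2 the 10 larger changes were Cables1 (2.54), Gimap6 (2.26), Akap12 (2.24), Arhgap29 (2.22), Cebpd (2.17), Camk2n1 (2.17), Nav2 (1.94), Kdsr (1.92), Bcl2l1 (1.88) and Fzd4 (1.86). Gimap6, a GTPase, went from a mean of 144 CPM in Ctrl to 243 CPM in D2 in endothelial cells and from 42.1 to 14.3 CPM in other cells, while D2-3 was at 123 CPM, near Ctrl. Bcl2l1, an inhibitor of apoptosis, went from 113 to 188 CPM and from 58.7 to 26.8 CPM, but was at 90.4 CPM in D2-3, and its call was lost with D2-3 included (adjusted p = 0.093) and without D2-2 (0.068).

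The smaller changes at D2 were Stmn1 (-3.70), Rad54b (-2.90), Dhx58 (-2.84), Gadd45a (-2.72), Slco1c1 (-2.59), Nceh1 (-2.50), Prr5l (-2.50), Nxn (-2.40) and Csrp1 (-2.36). Stmn1 had endothelial means of 337 CPM in Ctrl and 262 CPM in D2 and means of 36.8 and 368 CPM in other cells. Slco1c1 had endothelial means of 1388 and 1166 CPM and means of 0.469 and 2.34 CPM in other cells. Its difference thus rests largely on low levels in other cells. Nxn and Rad54b were at most at 3.51 CPM in other cells.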

How the results depend on the processing

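Counts of called genes were small and moved with most settings, and the cause was not tested. The count for D0 against Ctrl (1) was 5 by DESeq2, 78 with no filter on low counts, 5 with D2-3 included, 2 with a term for the Cell Ranger version, 0 without an upper UMI limit, 3 over genes higher in endothelial cells, 3 without the cells with neutrophil or erythroid UMIs, 0 with cells thinned to 1000 UMIs and 0 with only the groups compared. The count for D2 against Ctrl (2) was 11 by DESeq2, 78 with no filter, 4 with the Cell Ranger version, 7 by the stricter endothelial rule, 0 with no limit on microglia genes, 12 over genes higher in endothelial cells, 7 without the cells with neutrophil or erythroid UMIs, 1 when thinned and 5 with only the groups compared. The count for D2 against D0 (0) was 1, 59, 3, 3, 3 and 4 under DESeq2, no filter, the Cell Ranger version, the stricter rule, genes higher in endothelial cells and no cells with neutrophil or erythroid UMIs, and 2 with only the groups compared. Replicate numbers were not used as pairs in the main test. Correlations of deviations from the group mean were -0.036 to 0.171 in 7 pairs of the same number and -0.158 to 0.132 in 14 pairs of different numbers. With 2 D2 libraries the values of D2-1 and D2-2 mirror each other, so this check cannot exclude a pairing. With the replicate block the counts were 23, 9 and 17. Leaving out 1 library gave 0 to 14, 0 to 41 and 0 to 6 genes: 0 for D0 without Ctrl-2, Ctrl-3, D0-2, D2-1 or D2-2 and 14 without D0-3, 0 for D2 without Ctrl-3, D2-1 or D2-2 and 41 without Ctrl-1, and 6 between D2 and D0 without D0-3. The count of differences between endothelial and other cells (257 and 204) was 448 and 377 with no filter, 14 at D0 with D2-3 included, and 55 to 366 at D0 and 78 to 365 at D2 with 1 library left out, the lowest without Ctrl-3 in both. The difference in endothelial share stayed positive without any library, at 1.68 to 3.08 percentage points for D0 against Ctrl, 2.59 to 4.12 for D2 against Ctrl and 0.276 to 1.86 for D2 against D0. The arterial share differed by -19.6 to -4.62, -14.2 to 0.832 and 2.28 to 8.62 points and the venous share by 1.69 to 10.7, -5.63 to 0.160 and -12.8 to -4.45 points in these comparisons. The venous difference for D2 against Ctrl was 2.79 points when thinned and 3.73 with D2-3 included, and for D2 against D0 it was -0.172 when thinned. Directions reversed for S100a9 (log2 0.57 and 0.49) and S100a8 (1.09 and 0.68) between D2 and D0 without an upper UMI limit and without the cells with neutrophil or erythroid UMIs, for the activation median at D2 when thinned (-0.15) and without D2-1 (-0.049, against 1.34 without D2-2), and for the immediate-early median at D2 with the Cell Ranger version (-0.10), without an upper UMI limit (-0.25) and without D2-1 (-0.086, against 0.45 without D2-2). The cholesterol median at D0 ran from 0.68 to 1.09 with 1 library left out. Ctrl sums hold few cells (35 to 59), so a gene at a few CPM rests on single UMIs there.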

Other observations

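Markers of further cell types were counted in the endothelial cells. The 6 neuronal markers, led by Stmn2, summed to 106 to 431 CPM over the 9 libraries, against 0.897 to 8.43 CPM in other cells, with no order by group. Stmn2 alone was at 102 to 407 CPM in the endothelial cells, and no other gene of the list had more than 5 UMIs in a library. The 9 astroglial markers summed to 9.57 to 164 CPM, the highest in D0-1, the 8 ependymal and choroid plexus markers to 0 to 91.0 CPM, also the highest in D0-1, and the 8 oligodendrocyte markers to 10.2 to 38.3 CPM. The 9 lymphoid markers stayed at 62.2 CPM or less and the 6 fibroblast markers at 6.94 CPM or less. The 9 monocyte and border macrophage markers, led by Cd74, ranged from 14.9 CPM in D0-3 to 779 CPM in D2-1.

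S100a9 and S100a8, which encode the alarmin of neutrophils, were among the genes named by lowest p as higher in D0 than in Ctrl. The hemoglobin genes Hba-a1 and Hba-a2 were among those named by lowest p as lower in D0. Neither pair was called. S100a9 was at 0, 9.57 and 2.31 CPM in Ctrl and 1353, 4356 and 20.8 CPM in D0 (adjusted p = 0.078), and Hba-a1 at 59.8, 2330 and 0 CPM in Ctrl and 0 in D0 and D2 (adjusted p = 0.26). These levels lay almost wholly in the 13 cells set aside in the repeated counts.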
